A study of Mus musculus with 20 samples.

Results

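The genes described here are 36 genes of protein folding and folding stress in the endoplasmic reticulum (ER), measured in mouse cortical neurons kept without enough oxygen and glucose (oxygen-glucose deprivation, OGD), which serves as a model of stroke in culture. They were chosen by name: chaperones, protein disulfide isomerases, the translocon and its TRAP complex, ER-associated degradation, and the stress sensors with their transcription factor. Of the 36 genes, 31 had a named probe on the array, with 37 probes among 20614 named probes of 15785 genes. No named probe was found for Ssr1, Dnajb11, Dnajb9, Ero1l and Eif2ak3. Some identifiers of the array profile hold gene numbers of Ssr1, Dnajb9 and Ero1l, but these rows were not used. Of the 37 probes, 25, for 22 genes, were bright enough to be tested. The other 12 were detected on none of the 20 arrays, with mean raw signals of 42.1 to 54.4 units, and they leave 9 genes without a tested probe: Atf6, Calr, Canx, Derl1, Derl3, Dnajc3, Edem1, Ern1 and Manf.

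Secreted and membrane proteins enter the ER through the Sec61 channel and are folded there by HSP70- and HSP90-type chaperones, while protein disulfide isomerases form their disulfide bonds. When unfolded protein accumulates, the membrane sensors IRE1 (encoded by Ern1), PERK (Eif2ak3) and ATF6 start the unfolded protein response, which raises chaperones and degradation factors through the transcription factors XBP1, ATF4 and cleaved ATF6. Loss of oxygen and glucose disturbs oxidative folding, glycosylation and ER calcium, and ER stress is a known feature of ischaemic neurons.

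Neurons came from fetal neocortex of Swiss albino mice at gestational day 15 to 16 and were used on day 7 of culture. There were 5 untreated control arrays and 3 arrays for each of 5 lengths of OGD (10 min, 5 h, 8 h, 15 h and 24 h), in which hypoxia at a PO2 under 50 mm Hg was kept up until the cells were collected. Labelled cRNA was hybridised to single-colour bead arrays, and values below are log2 normalized signals unless stated. Whether the replicates were grown as separate cultures is not given in the labels. The p-values therefore describe the spread among these arrays alone, and that spread may be technical.

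Slide and time were partly confounded. All 10 min arrays and control replicate 1 shared slide 1. Slide 2 carried the 5 h and 8 h arrays beside controls 4 and 5, and slide 3 the 15 h and 24 h arrays beside controls 2 and 3. Control replicate 2 stood apart from the other controls: it lay below all of them for 28.2% of the 10447 tested probes and above all of them for 29.6%. Among the 25 tested ER probes it lay below for 7 and above for 5. Against the other 4 controls, it differed in the same direction as the 10 min arrays for 19 of these 25 probes. The share of all tested probes was 79.0%. Both differences were taken from the same 4 controls, and the cause was not tested. Of 43 calls over 9 comparisons, 7 were kept with the slide as a fixed block in the model. Slide 1 held 1 control, so every value with the slide block or with same-slide controls that involves the 10 min arrays rests on control replicate 1, which is assumed to vary like the arrays of the other groups. Of 14 named neuronal markers, Snap25, Nefl and Gad2 were detected on too few arrays to be tested, and the other 11 were tested. Their summed signal was 22384 to 26322 units in the controls, 20865 to 22092 at 10 min, 25426 to 28701 at 5 h, 15672 to 17118 at 15 h and 18167 to 20950 at 24 h. All 11 were lower at 15 h, 3 at 10 min and 6 at 24 h. The summed signal of 8 astrocyte markers was 17883 to 26437 units in the controls, 29180 to 31955 at 10 min, 17640 to 17978 at 5 h, 35473 to 38040 at 15 h and 32256 to 36940 at 24 h. All 8 were higher at 15 h, 6 at 10 min and 7 at 24 h. The astrocyte markers S100b and Slc1a2 were detected on too few arrays to be tested. Of 5 tested microglial markers 4 were higher at 15 h and at 24 h, while Aif1, Cx3cr1, Itgam and Tyrobp were detected on too few arrays to be tested. The 5 tested probes were dim, with a summed signal of 154 to 208 units in the controls, 266 to 289 at 15 h and 233 to 351 at 24 h. The 10 min, 15 h and 24 h groups were also those with the most probes past the threshold against the controls, among the ER genes and among all probes. The part of cell composition in the results was not tested, and in such bulk samples fewer cells of a type and less RNA per cell cannot be told apart.

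Gene names carry a limit of their own. The deposited tables put different identifiers on rows with the same values, and the names used here are those of the array profile. Under the names of the other tables the mean raw signal of Hspa5 would be 1886.0 units in place of 157.8, that of Hsp90b1 48.2 in place of 1277.0, that of Pdia4 779.4 in place of 491.1 and that of Dnajc3 20739.8 in place of 46.0. The signals of Xbp1, Ssr2, Pdia3 and Sec61a1 would be 60.6, 41.2, 48.6 and 42.8 in place of 1485.4, 2214.3, 1531.2 and 349.7. With those names 15 of 37 ER probes would be tested, in place of 25. The probe then called Hspa5 differs from the controls by -0.06 to 0.20 over the 5 times. That called Pdia4 differs by -0.17 at 15 h and -0.06 at 24 h and does not pass (adjusted p = 0.138 and 0.67). That called Xbp1 is higher at 15 h and 24 h, by 0.44 and 0.75 (adjusted p = 0.00599 and 0.000136). The fall of Derl2 from 10 min to 5 h passes under both names, at -0.40 with the other name (adjusted p = 0.00679). Every result for a named gene below rests on the profile's names.

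The promoters of these genes are shown first, because the ER stress response element is the sequence through which ATF6 and XBP1 act on chaperone genes. Promoters from 250 bases before to 50 after the transcription start were taken from RefSeq, build GRCm38.p6, for 29 of the 36 genes (30 promoters). The element ERSE, read on either strand as CCAAT, any 9 bases and CCACG, was found in 9 of these 30 promoters and in 0.119% of all 32851 promoters of the same length. The genes were Calr, Canx, Creld2, Derl3, Dnajc3, Hsp90b1, Hspa5, Pdia6 and Syvn1, of which 5 were tested on the arrays. ERSE-II, read as ATTGG, any 1 base and CCACG, was found in the promoters of Dnajb11 and Herpud1 and in 0.0365% of all promoters. The UPRE core TGACGTGG was found in 0 of the 30 and in 0.676% of all, and the ATF4-type element TGATGNAA in Herpud1 alone and in 3.97% of all. A match of letters is a description of the window and not evidence of binding. Shown are the 250 bases before the start of Hspa5, the ER gene with the largest difference in any comparison, that of 5 h against 10 min (chr2:34771840-34772089, plus strand), those of Pdia4, the ER gene with the largest rise at 15 h and at 24 h (chr6:47813513-47813762, minus strand), and short windows around the elements of the other tested genes. These windows are chr10:86705623-86705671 and chr10:86705518-86705566 for Hsp90b1 (minus strand), chr15:88819505-88819553 for Creld2, chr12:17266476-17266524 for Pdia6, chr19:6046517-6046565 for Syvn1 and chr8:94386362-94386402 for Herpud1 (all plus strand). Capitals mark the fixed bases of ERSE, or of ERSE-II in Herpud1.
Hspa5: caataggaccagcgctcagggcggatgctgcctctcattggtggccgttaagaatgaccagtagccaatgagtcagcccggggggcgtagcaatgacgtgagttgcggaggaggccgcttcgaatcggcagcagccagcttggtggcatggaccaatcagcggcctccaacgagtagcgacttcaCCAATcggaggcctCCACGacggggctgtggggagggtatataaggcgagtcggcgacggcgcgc
Pdia4: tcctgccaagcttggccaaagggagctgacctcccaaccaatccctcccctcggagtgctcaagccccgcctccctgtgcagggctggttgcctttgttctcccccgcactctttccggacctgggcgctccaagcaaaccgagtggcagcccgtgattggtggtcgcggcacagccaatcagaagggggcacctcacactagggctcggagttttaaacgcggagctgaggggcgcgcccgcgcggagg
Hsp90b1 distal element: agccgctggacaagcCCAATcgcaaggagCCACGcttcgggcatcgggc
Hsp90b1 proximal element: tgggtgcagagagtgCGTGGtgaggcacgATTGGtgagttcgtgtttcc
Creld2: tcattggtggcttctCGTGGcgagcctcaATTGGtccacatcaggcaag
Pdia6: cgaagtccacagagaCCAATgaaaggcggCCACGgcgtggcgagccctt
Syvn1: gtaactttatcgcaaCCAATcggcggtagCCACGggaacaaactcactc
Herpud1: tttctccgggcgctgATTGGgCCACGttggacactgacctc
Counted from the start, the Hspa5 element lay from position -65 to -47, and of the elements shown that of Syvn1 was the closest, from -44 to -26. The Pdia4 window held none of the searched letters.

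The ER genes did not move as 1 block. The central chaperones Hspa5 and Hyou1 were lower than the controls after 10 min, Hspa5 was higher at 5 h, and both were lower at 24 h. At 15 h Pdia4, Derl2, Ssr3 and Sil1 rose while Xbp1, Herpud1 and Hyou1 fell. These were 5 probes higher and 3 lower of 25, and all probes also went both ways, 18.7% higher and 19.9% lower. No ER gene called at 10 min or 5 h against all controls kept its call with the slide block, and neither did Sil1 and Herpud1 at 15 h or the chaperones at 24 h. Differences were small. The largest from the controls was 0.74 on the log2 scale, and 1 of 25 probes, that of Hspa5, reached 1 in any of 9 comparisons, while 374 of all 10447 probes reached 1 at 15 h against the controls. Over the 5 times together, 15 of 25 ER probes passed the F test, against 54.5% of all probes. There were 7 probes that passed in none of the 9 comparisons, those of Os9, Pdia3, Pdia6, Sdf2l1, Sec61g and Ssr2 and 1 of the 2 of Sec61b.

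**Figure D1:**
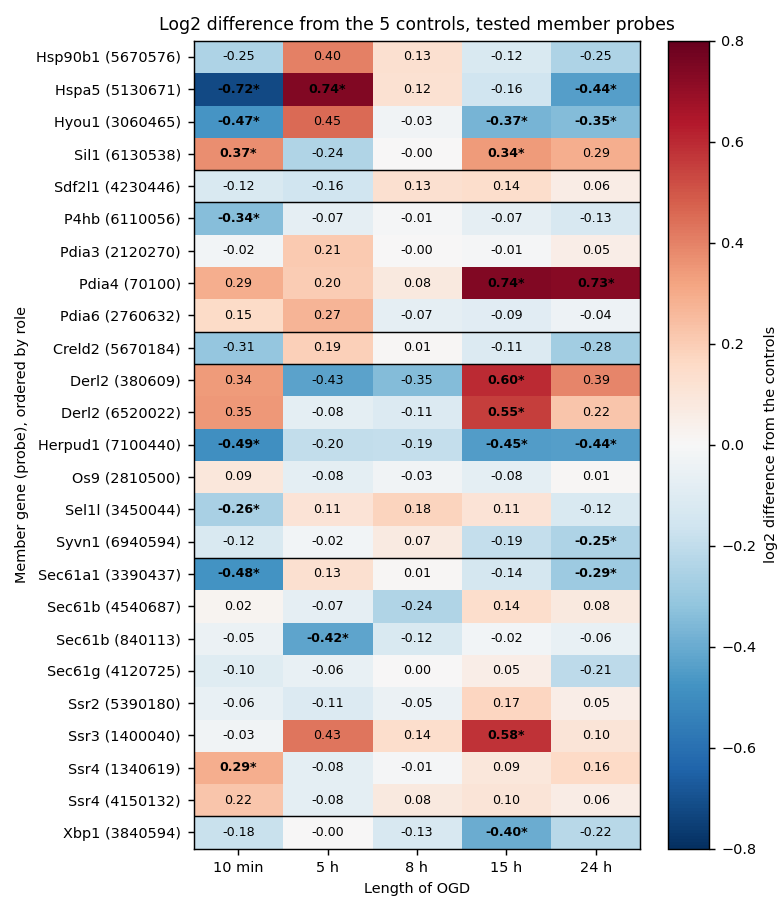
Log2 difference from the 5 controls for each of the 25 tested probes (rows, grouped by role, gene and probe number given) at 5 lengths of OGD (columns), with red for higher and blue for lower. A star and bold type mark an adjusted p under 0.05: 8 probes carry one at 10 min, 2 at 5 h, 0 at 8 h, 8 at 15 h and 6 at 24 h.

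Hspa5 encodes BiP, the HSP70-type chaperone of the ER lumen that also keeps the stress sensors inactive. Its signal was 6.69, 6.67, 7.33, 7.02 and 6.96 on the control arrays and 6.12, 6.15 and 6.37 on the 10 min arrays. It was 7.77, 7.76 and 7.50 at 5 h and 6.84, 7.02 and 7.30 at 8 h. It was 6.81, 6.47 and 7.03 at 15 h and 6.55, 6.44 and 6.50 at 24 h. All 10 min and 24 h arrays lay below every control and all 5 h arrays above every control, while the 8 h and 15 h arrays overlapped with the controls. Hspa5 fell by 0.72 ± 0.15 at 10 min (SE, n = 3 against 5, adjusted p = 0.00282), which is 1.65-fold, and rose by 0.74 ± 0.15 at 5 h (adjusted p = 0.0168), which is 1.67-fold. At 24 h it fell by 0.44 ± 0.15 (adjusted p = 0.0303). Between 10 min and 5 h it rose 2.75-fold, by 1.46 ± 0.16 (adjusted p = 1.16e-05). This step was 1.16 with the slide as a fixed block and still passed (adjusted p = 0.0352). The comparisons with the controls did not pass with the block, at -0.48 (adjusted p = 0.182) for 10 min, 0.68 (adjusted p = 0.168) for 5 h and -0.50 (adjusted p = 0.076) for 24 h. From 5 h to 8 h the difference was -0.62 ± 0.16, with all 8 h arrays below all 5 h arrays, and it missed the threshold (adjusted p = 0.0506).

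Hyou1 encodes GRP170, a large HSP70 relative that acts as nucleotide exchange factor of BiP. Its dim probe was detected on 16 of 20 arrays, with 1 of 3 at 10 min and 2 of 3 at 15 h and at 24 h. Its signal was 5.59, 5.62, 6.09, 5.68 and 5.80 in the controls, 5.31, 5.23 and 5.33 at 10 min, 6.15, 6.17 and 6.29 at 5 h, and 5.70, 5.79 and 5.71 at 8 h. It was 5.28, 5.18 and 5.69 at 15 h and 5.47, 5.57 and 5.18 at 24 h. The 10 min and 24 h arrays were below all controls, the 5 h arrays were above all of them, and 1 of the 15 h arrays overlapped. Hyou1 fell by 0.47 ± 0.12 at 10 min (adjusted p = 0.013), by 0.37 ± 0.12 at 15 h (adjusted p = 0.0224) and by 0.35 ± 0.12 at 24 h (adjusted p = 0.039). The 5 h value, 0.45 ± 0.12, missed the threshold (adjusted p = 0.0549). It rose by 0.91 ± 0.14 from 10 min to 5 h (adjusted p = 0.0001), a step of 0.77 with the slide block that did not pass (adjusted p = 0.0779). Against the controls of the same slide the 15 h fall was 0.47 and passed (adjusted p = 0.0331), whereas the 10 min and 24 h differences were -0.30 and -0.45 and did not (adjusted p = 0.247 and 0.0646). With the slide block the values were the same, with adjusted p = 0.317 for 10 min and 0.0581 for 24 h.

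Hsp90b1 encodes GRP94, the HSP90 of the ER. Its signal was 10.11, 9.90, 10.29, 10.53 and 10.46 in the controls, 9.91, 9.96 and 10.15 at 10 min, and 10.50, 10.74 and 10.73 at 5 h. It was 10.41, 10.29 and 10.47 at 8 h, 10.27, 9.81 and 10.34 at 15 h, and 10.14, 9.92 and 9.96 at 24 h. Every time overlapped with the controls, of which control replicate 2 was the lowest. No difference from the controls passed, with 0.40 ± 0.14 at 5 h (adjusted p = 0.103) the largest in size. Hsp90b1 rose by 0.65 ± 0.15 from 10 min to 5 h (adjusted p = 0.00311), and this was 0.27 with the slide block (adjusted p = 0.53). Without control replicate 2 the differences of -0.34 at 10 min and at 24 h passed (adjusted p = 0.0443 and 0.0393).

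Sil1, another nucleotide exchange factor of BiP, ran the other way. Its signal was 6.21, 6.53, 6.10, 5.86 and 6.02 in the controls, 6.46, 6.59 and 6.50 at 10 min, and 6.06, 5.68 and 5.96 at 5 h. It was 6.08, 5.99 and 6.35 at 8 h, 6.44, 6.49 and 6.52 at 15 h, and 6.21, 6.54 and 6.55 at 24 h. Control replicate 2 was the highest control and lay among the 10 min and 24 h arrays and above all 15 h arrays. Sil1 rose by 0.37 ± 0.13 at 10 min (adjusted p = 0.0494) and by 0.34 ± 0.13 at 15 h (adjusted p = 0.0449), both close to the threshold and neither past it with the slide block (adjusted p = 0.293 and 0.425). It fell by 0.62 ± 0.15 from 10 min to 5 h (adjusted p = 0.00323), and with the slide block by 0.35 without passing (adjusted p = 0.381).

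**Figure D2:**
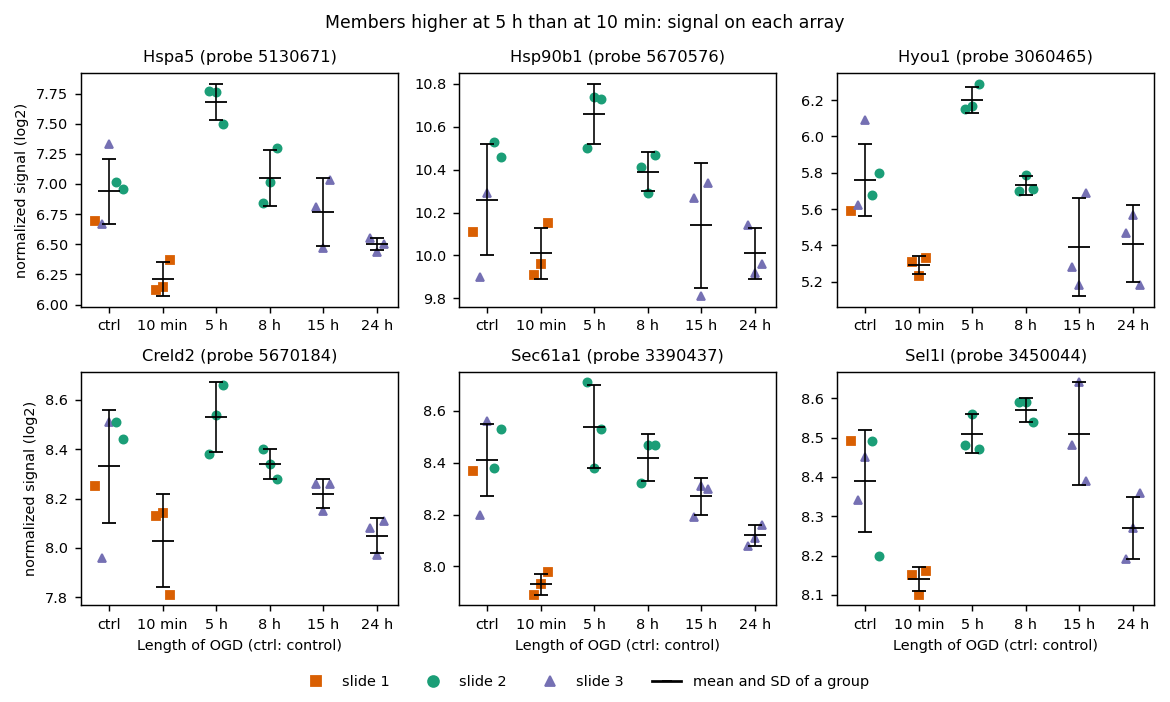
Normalized log2 signal on each array (points, with colour and shape for the slide) and mean with SD for each group, for 6 genes that rose from 10 min to 5 h of OGD. The 6 genes were chosen for a rise in this step, and the 3 arrays of 10 min lie below the 3 arrays of 5 h in every panel. That separation depends on which genes are shown. Of the 7 genes that passed as higher in this step, Ssr3 is not among the 6. Its arrays overlap, at 7.50 to 7.81 for 10 min and 7.71 to 8.28 for 5 h. Arrays of these 2 groups do not overlap for 50.7% of all probes. For Hspa5, Hyou1, Sec61a1 and Sel1l the 10 min arrays also lie below all 5 controls. At 10 min 17.3% of all probes do not overlap with the controls, in either direction.

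Among the 4 tested protein disulfide isomerases, Pdia4 was higher late and P4hb lower at 10 min, and the other 2 passed in no comparison. Pdia4, which encodes ERp72, had a signal of 8.25, 8.64, 8.61, 8.55 and 8.55 in the controls, 8.77, 8.96 and 8.71 at 10 min, and 8.51, 8.83 and 8.83 at 5 h. It was 8.81, 8.44 and 8.55 at 8 h, 9.26, 9.34 and 9.18 at 15 h, and 9.14, 9.23 and 9.37 at 24 h. All 15 h and 24 h arrays were above every other array of the series. Pdia4 rose 1.67-fold at 15 h, by 0.74 ± 0.11 (adjusted p = 4.39e-05), and 1.66-fold at 24 h, by 0.73 ± 0.11 (adjusted p = 0.000103). With the slide block it rose by 0.63 and 0.62 (adjusted p = 0.00153 and 0.00475). Against the 2 controls of the same slide the values were also 0.63 and 0.62 and passed (adjusted p = 0.00204 and 0.00598). The step from 8 h to 15 h was 0.66 ± 0.12 (adjusted p = 0.000536) and did not pass with the slide block, at 0.58 (adjusted p = 0.058). At 10 min the Pdia4 arrays lay above all controls, but the difference of 0.29 ± 0.11 missed the threshold (adjusted p = 0.0675), although it passed at 0.57 with the slide block (adjusted p = 0.0321). That value is the difference from control replicate 1 alone, which at 8.25 was the lowest control and stood far below the others, at 8.55 to 8.64.

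P4hb, the classical protein disulfide isomerase, had signals of 10.51 to 10.78 at 10 min and 10.70 to 11.11 in the controls, and fell by 0.34 ± 0.10 (adjusted p = 0.0262), or 0.49 against the 1 control of its slide (adjusted p = 0.0299). The same 0.49 did not pass with the slide block (adjusted p = 0.0539), and the call was also lost with a replicate block (adjusted p = 0.124). Its other times read 10.75 to 11.09. Pdia3, the ERp57 partner of the lectin chaperones calnexin and calreticulin, ranged from 10.17 to 10.84 over all arrays, with differences of -0.02 to 0.21 from the controls. Pdia6 ranged from 7.55 to 8.37, with differences of -0.09 to 0.27. Creld2, whose product is an ER-resident and secreted protein induced by ER stress, had a signal of 8.25, 7.96, 8.51, 8.51 and 8.44 in the controls, 8.13, 8.14 and 7.81 at 10 min, and 8.38, 8.54 and 8.66 at 5 h. It was 8.40, 8.34 and 8.28 at 8 h, 8.26, 8.15 and 8.26 at 15 h, and 8.08, 7.97 and 8.11 at 24 h. Control replicate 2 was again the lowest control, and every time overlapped with the controls. Creld2 rose by 0.50 ± 0.13 from 10 min to 5 h (adjusted p = 0.00624), or 0.27 with the slide block (adjusted p = 0.483). Without control replicate 2 the differences of -0.40 at 10 min (adjusted p = 0.00403) and -0.37 at 24 h (adjusted p = 0.00529) passed. Sdf2l1, a partner of the J-domain chaperones, ranged from 5.46 to 6.04 and passed in no comparison.

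At the translocon the pore subunit was lower at 10 min and at 24 h, and of the smaller subunits 1 probe passed. Sec61a1, the channel-forming subunit, had a signal of 8.37, 8.20, 8.56, 8.38 and 8.53 in the controls, 7.89, 7.93 and 7.98 at 10 min, and 8.71, 8.38 and 8.53 at 5 h. It was 8.32, 8.47 and 8.47 at 8 h, 8.19, 8.31 and 8.30 at 15 h, and 8.08, 8.11 and 8.16 at 24 h. The 10 min and 24 h arrays lay below all controls. Sec61a1 fell by 0.48 ± 0.09 at 10 min (adjusted p = 0.002) and by 0.29 ± 0.09 at 24 h (adjusted p = 0.0229), and rose by 0.61 ± 0.10 from 10 min to 5 h (adjusted p = 0.000246). Against the 1 control of its slide the 10 min fall was 0.43 (adjusted p = 0.0276), and with the slide block the same value did not pass (adjusted p = 0.0641). At 24 h the difference was -0.26 with the block and did not pass (adjusted p = 0.147). The step to 5 h was 0.52 with the block (adjusted p = 0.11). For Sec61b the brighter probe fell by 0.42 ± 0.11 at 5 h (adjusted p = 0.0465), with arrays at 9.04 to 9.07 against 9.36 to 9.64 in the controls. It did not pass with the slide block or the same-slide controls, at -0.44 (adjusted p = 0.241 and 0.164). The other Sec61b probe read 9.05 to 9.19 at 5 h and 8.65 to 9.48 in the controls, a difference of -0.07, so the 2 probes do not give the same call. Sec61g ranged from 10.75 to 11.39 over all arrays and passed in no comparison.

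The TRAP complex, which helps nascent chains enter the channel, gave a call in 2 of its 3 tested subunits. Ssr3 had a signal of 7.56, 7.60, 7.51, 8.02 and 7.60 in the controls, 7.50, 7.59 and 7.81 at 10 min, and 7.71, 8.28 and 8.28 at 5 h. It was 7.66, 7.73 and 7.99 at 8 h, 8.31, 7.97 and 8.44 at 15 h, and 7.77, 7.79 and 7.69 at 24 h. Control replicate 4 was high and overlapped with the 15 h arrays. Ssr3 rose by 0.58 ± 0.14 at 15 h (adjusted p = 0.00346), or 1.5-fold, and by 0.69 against the controls of the same slide (adjusted p = 0.00686). At 24 h its difference was 0.10, and 24 h against 15 h, -0.49, did not pass (adjusted p = 0.142). The brighter Ssr4 probe read 10.60, 10.54, 10.52, 10.53 and 10.48 in the controls, 10.76, 10.86 and 10.85 at 10 min, and 10.53, 10.42 and 10.41 at 5 h. It read 10.44, 10.50 and 10.64 at 8 h, 10.63, 10.67 and 10.57 at 15 h, and 10.58, 10.78 and 10.71 at 24 h. Only the 10 min arrays lay wholly above the controls: the probe rose by 0.29 ± 0.08 (adjusted p = 0.0127), or by 0.22 without passing with the slide block (adjusted p = 0.234). The other Ssr4 probe gave 0.22 there and did not pass (adjusted p = 0.102). Both Ssr4 probes fell from 10 min to 5 h, by 0.37 ± 0.09 (adjusted p = 0.00257) and 0.29 ± 0.10 (adjusted p = 0.0332), and neither passed with the block (adjusted p = 0.285 and 0.687). Ssr2 ranged from 10.90 to 11.31 and passed in no comparison.

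In ER-associated degradation, which returns misfolded proteins to the cytosol for the proteasome, the genes diverged. Derl2 encodes derlin-2, a membrane protein of the export step. Its brighter probe read 7.02, 7.36, 7.16, 7.30 and 7.09 in the controls, 7.76, 7.63 and 7.20 at 10 min, and 6.27, 6.85 and 7.15 at 5 h. It read 7.14, 6.80 and 6.58 at 8 h, 8.00, 7.63 and 7.73 at 15 h, and 7.47, 7.75 and 7.52 at 24 h. The 15 h and 24 h arrays were above all controls on this probe. Derl2 rose by 0.60 ± 0.17 at 15 h on this probe (adjusted p = 0.00922) and by 0.55 ± 0.13 on the dimmer tested probe (adjusted p = 0.0018), where all 15 h arrays, at 7.20 to 7.48, were above the controls at 6.63 to 7.04. Against the controls of the same slide the dimmer probe passed at 0.51 (adjusted p = 0.0286) and the brighter one, at 0.53, did not (adjusted p = 0.0911). From 8 h to 15 h the probes rose by 0.94 ± 0.19 (adjusted p = 0.000941) and 0.66 ± 0.14 (adjusted p = 0.0014), and from 10 min to 5 h they fell by 0.77 ± 0.19 (adjusted p = 0.0044) and 0.43 ± 0.14 (adjusted p = 0.0221). None of these 4 steps passed with the slide block. At 24 h neither tested probe passed against the controls, and the dimmer one, at 6.96 to 7.10, overlapped with them. The remaining Derl2 probe was detected on no array.

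Herpud1 encodes HERP, a membrane component of the degradation complex and a marker of the unfolded protein response. Its signal was 6.59, 6.04, 7.02, 6.50 and 6.75 in the controls, 6.24, 5.97 and 6.06 at 10 min, and 6.29, 6.44 and 6.41 at 5 h. It was 6.71, 6.41 and 6.04 at 8 h, 6.07, 6.26 and 6.05 at 15 h, and 6.13, 6.08 and 6.21 at 24 h. Control replicate 2 was the lowest control by far and lay among the OGD arrays, so the groups overlapped at every time. Herpud1 fell by 0.49 ± 0.16 at 10 min (adjusted p = 0.0394), by 0.45 ± 0.16 at 15 h (adjusted p = 0.0347) and by 0.44 ± 0.16 at 24 h (adjusted p = 0.0483). Without control replicate 2 these values were -0.63, -0.59 and -0.58 (adjusted p = 0.00155, 0.00168 and 0.00234). With the slide block they were -0.50, -0.40 and -0.39 and did not pass (adjusted p = 0.23, 0.172 and 0.245).

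Sel1l is the adaptor of the ubiquitin ligase HRD1, which Syvn1 encodes. Sel1l had a signal of 8.49, 8.34, 8.45, 8.49 and 8.20 in the controls, 8.15, 8.10 and 8.16 at 10 min, and 8.48, 8.56 and 8.47 at 5 h. It was 8.59, 8.59 and 8.54 at 8 h, 8.48, 8.64 and 8.39 at 15 h, and 8.19, 8.27 and 8.36 at 24 h. The 10 min arrays lay below all controls, control replicate 5 being the closest. Sel1l fell by 0.26 ± 0.08 at 10 min (adjusted p = 0.0376) and rose by 0.37 ± 0.09 from 10 min to 5 h (adjusted p = 0.00539). With the slide block these were -0.35 (adjusted p = 0.092) and 0.51 (adjusted p = 0.0851). Syvn1 read 10.11 to 10.23 at 24 h and 10.27 to 10.59 in the controls, and fell by 0.25 ± 0.08 (adjusted p = 0.0325). It also fell by 0.25 ± 0.09 from 8 h to 15 h (adjusted p = 0.0447). Neither call passed with the slide block (adjusted p = 0.115 and 0.165). Os9, a lectin that hands misfolded glycoproteins to this ligase, ranged from 9.35 to 9.89 and passed in no comparison.

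Of the sensor arm, Xbp1 alone could be tested, since the probes of Atf6 and Ern1 were detected on no array and Eif2ak3 had no named probe. XBP1 is the transcription factor made from an mRNA that IRE1 splices, and the probe was not assigned here to the spliced or the unspliced form. Its signal was 10.52, 10.66, 10.84, 10.42 and 10.68 in the controls, 10.53, 10.38 and 10.43 at 10 min, and 10.69, 10.59 and 10.58 at 5 h. It was 10.50, 10.46 and 10.51 at 8 h, 10.19, 10.20 and 10.27 at 15 h, and 10.47, 10.43 and 10.30 at 24 h. The 15 h arrays lay below every other array of the series. Xbp1 fell by 0.40 ± 0.09 at 15 h (adjusted p = 0.00129), and by 0.53 against the controls of the same slide (adjusted p = 0.000804). It also fell by 0.27 ± 0.10 from 8 h to 15 h (adjusted p = 0.0421), a step of -0.46 with the slide block that did not pass (adjusted p = 0.0576).

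**Figure D3:**
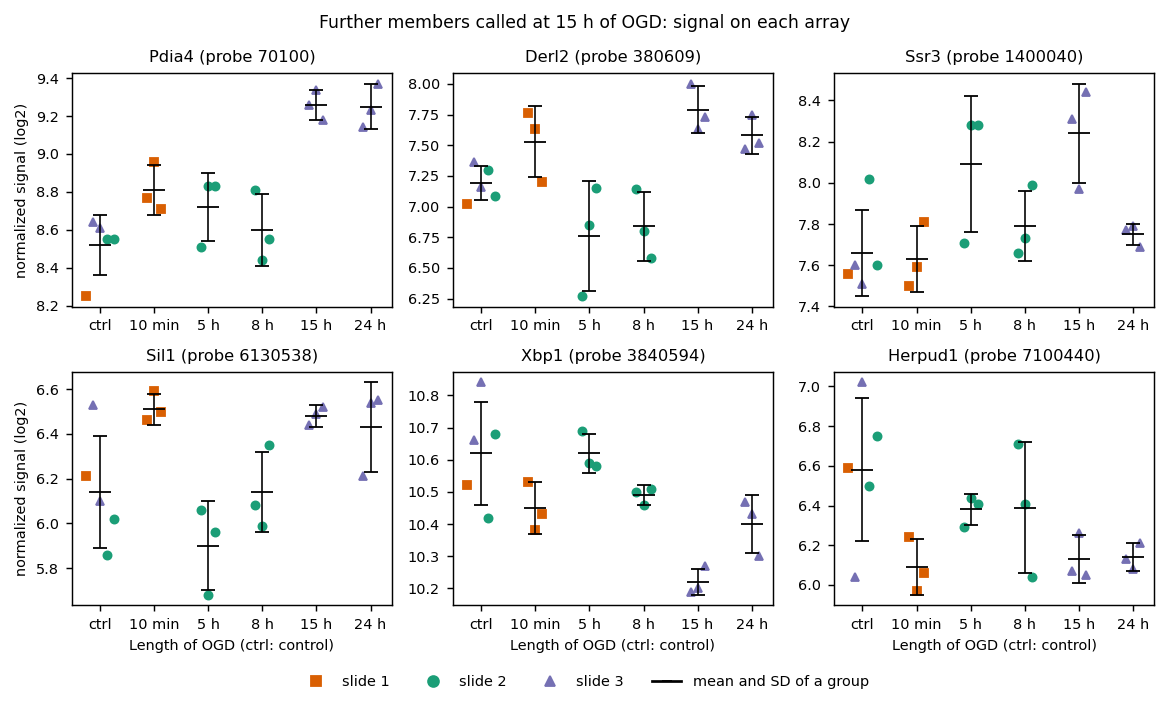
Normalized log2 signal on each array (points, with colour and shape for the slide) and mean with SD for each group, for 6 genes that passed at 15 h of OGD. Pdia4 is higher on all 15 h and 24 h arrays than on any other array and Xbp1 is lowest on the 15 h arrays, while control replicate 2 of Herpud1, at 6.04, lies among the OGD arrays.

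The counts by time are given beside those of all probes. At 10 min 8 of 25 passed, 2 higher and 6 lower, and 20.4% of all probes did (11.0% higher and 9.39% lower). When the slide was a fixed block 1 of 25 passed, that of Pdia4, which was none of the 8, against 11.8% of all probes. Against control replicate 1 alone, the 1 control of that slide, 3 of 25 passed, those of P4hb, Sec61a1 and Pdia4, of which P4hb and Sec61a1 were among the 8, against 18.3% of all probes. Without control replicate 2, 12 passed, while the share of all probes went from 20.4% to 33.8%. At 5 h 2 of 25 passed against 2.83% of all probes, with Hspa5 higher (1.68% of all probes were) and a Sec61b probe lower (1.15%), and against the slide's own controls 0 did, as did 0.306% of all probes. At 8 h 0 of 25 passed and 0 of all 10447 probes did in limma's test, with 1 ER probe and 668 of all probes at an unadjusted p under 0.05.

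At 15 h 8 of 25 passed, 5 higher and 3 lower, against 38.6% of all probes (18.7% higher and 19.9% lower). Of these 8, the probes of Pdia4, Ssr3, Xbp1 and Hyou1 and 1 of the 2 of Derl2 also passed with the slide block (28.0% of all probes) and with the controls of the same slide (27.7%). At 24 h 6 of 25 passed, Pdia4 higher and Hspa5, Hyou1, Herpud1, Sec61a1 and Syvn1 lower, against 29.1% of all probes (14.7% higher and 14.4% lower). With the slide block (13.8% of all probes) or the same-slide controls (14.2%) 2 passed at 24 h: Pdia4, and Xbp1, which was lower and not among the 6. Median differences of the 25 probes were -0.06, -0.06, 0.00, -0.01 and -0.04 from 10 min to 24 h, and those of all probes -0.01, 0.00, 0.00, -0.02 and -0.02. Arrays did not overlap with the controls for 7 of 25 probes at 10 min (17.3% of all probes) and 3 at 5 h (10.4%). The same held for 1 at 8 h (2.9%), 5 at 15 h (32.2%) and 6 at 24 h (26.3%).

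Between successive times, the 5 h arrays differed from the 10 min arrays in 13 of 25 probes, 7 higher and 6 lower, against 35.8% of all probes (17.6% higher and 18.2% lower). These groups lay on different slides, and with the slide block 1 of the 13, Hspa5, passed, as did 4.39% of all probes. From 5 h to 8 h, on 1 slide, 0 of 25 passed against 2.31% of all probes, with 5 ER probes and 2168 of all probes at an unadjusted p under 0.05 in limma's test. Hspa5 passed in this step in the fit with the slide block (adjusted p = 0.0418). From 8 h to 15 h 6 of 25 passed, 4 higher and 2 lower, against 32.9% of all probes (16.0% higher and 16.9% lower), and 0 with the slide block, against 6.7% of all probes. From 15 h to 24 h, on 1 slide, 0 of 25 passed against 1.04% of all probes, with 3 ER probes and 1568 of all probes at an unadjusted p under 0.05 in limma's test.

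**Figure D4:**
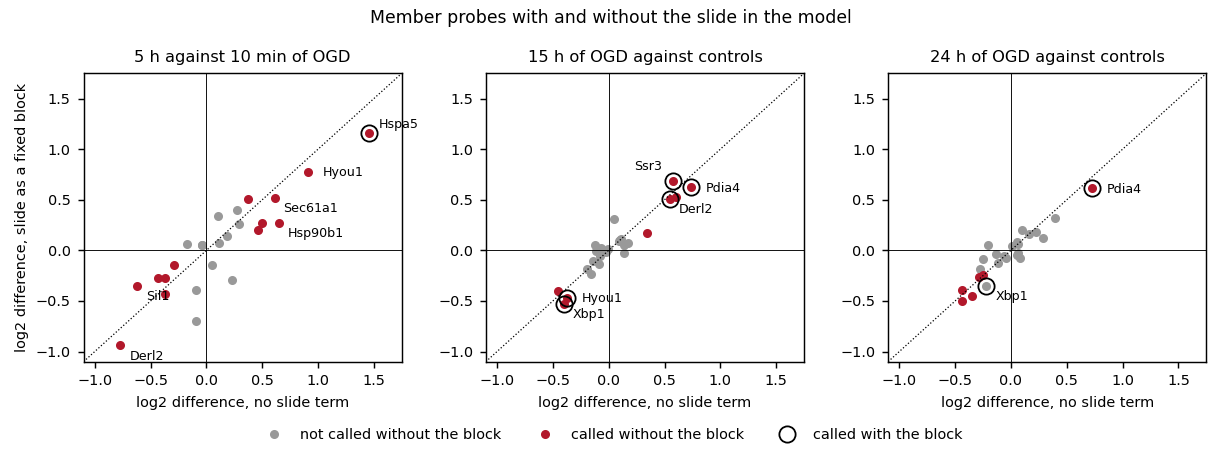
Log2 difference of the 25 ER probes without (horizontal axis) and with (vertical axis) the slide as a fixed block, for 5 h against 10 min and for 15 h and 24 h against the controls. Red points passed without the block and black rings mark those that passed with it: 1 for 5 h against 10 min, 5 at 15 h and 2 at 24 h. The dotted line marks equal values.

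For the 5 tested genes with an ERSE in the promoter, values of 5 h against 10 min were compared. They were 1.46 for Hspa5, 0.65 for Hsp90b1, 0.50 for Creld2, 0.11 for Pdia6 and 0.10 for Syvn1. The first 3 passed, and 17.6% of all probes were called higher in this step. With the slide block Hsp90b1 and Creld2 did not pass and Hspa5 did. Herpud1, with an ERSE-II, gave 0.29 and did not pass (adjusted p = 0.222). Hyou1, Sec61a1, Ssr3 and Sel1l also rose in this step, by 0.91, 0.61, 0.46 and 0.37. The letters of ERSE were not in the windows of Ssr3 and Sel1l, and Hyou1 and Sec61a1 were not among the genes with a promoter. At 15 h none of the 5 ERSE genes passed, while Pdia4, Derl2, Ssr3 and Sil1 rose and Xbp1, Herpud1 and Hyou1 fell. These are counts in a handful of genes, and no relation between the element and the differences was tested. Where a gene had 2 tested probes, they correlated over the 20 arrays at 0.74 for Ssr4, 0.55 for Derl2 and 0.49 for Sec61b, with the points of each pair sharing the array and its slide.

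Other genes of the ER pathway were counted by list, and the share of all probes called in each direction is the measure to read each count against: 11.0% higher and 9.39% lower at 10 min, 18.7% and 19.9% at 15 h, and 16.0% and 16.9% from 8 h to 15 h. Among outputs of PERK and ATF4, the arm that holds back translation and turns on amino acid and stress genes, 14 of 17 tested genes were lower at 10 min, with a median difference of -0.72, and 0 were higher. At 5 h 0 of 17 passed, with a median of 0.20, and 14 rose from 10 min to 5 h, against 17.6% of all probes. At 15 h 7 were lower and 1 higher, and at 24 h 13 were lower, against 14.4% of all probes, with a median of -0.84. In the fit with the slide block 11 of the 14 kept their call at 10 min (6.43% of all probes were lower), 6 of 14 from 10 min to 5 h (2.5% of all probes were higher), 6 of 8 at 15 h and 8 of 13 at 24 h. Without control replicate 2 the count lower at 15 h was 12, against 23.5% of all probes. Atf5, a transcription factor of this arm, fell 3.05-fold at 10 min, by 1.61 (adjusted p = 6.67e-05). Asns, asparagine synthetase, fell by 1.24 at 10 min (adjusted p = 0.00099) and by 1.49 at 15 h (adjusted p = 3.16e-05). Nupr1 was detected on 4 of 5 controls and on 0 of 3 arrays at 10 min. At 15 h Slc7a11, the cystine transporter subunit, rose by 1.14 (adjusted p = 7.87e-06). Ppp1r15b, detected on 2 of 3 arrays at 15 h, fell by 1.03 there (adjusted p = 7.96e-05). It encodes a subunit of the phosphatase that reverses PERK signalling. The counts of the list include it, although it is a regulator of this arm, and whether it is an output was not tested. These calls of Atf5, Asns, Slc7a11 and Ppp1r15b were kept with the slide block. Slc7a11, Asns and Ppp1r15b also passed from 8 h to 15 h, at 1.07, -1.43 and -1.05, of which Slc7a11 was kept with the block.

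Other ER folding enzymes and isomerases were higher in 11 and lower in 1 of 26 tested genes at 15 h (median 0.16), against 18.7% and 19.9% of all probes, and 9 rose from 8 h to 15 h, against 16.0%. The slide block kept 9 of the 12 calls at 15 h and 4 of the 9 from 8 h to 15 h. At 10 min 4 were higher, none of which was kept with the block, led by Fkbp9 at 0.46, Txndc5 at 0.41 and Cnpy2 at 0.37. The leading genes at 15 h were Fkbp9, a prolyl isomerase, which rose by 0.84 (adjusted p = 5.41e-06), Serpinh1, the collagen chaperone HSP47, which rose by 0.81 (adjusted p = 1.13e-05), and Calu, the calcium-binding calumenin, which rose by 0.68 (adjusted p = 4.32e-05). The same genes led from 8 h to 15 h, at 0.79, 0.79 and 0.52, and all 6 of these values passed with the block. The astrocyte markers given above were higher at 10 min, 15 h and 24 h as well. So were 4, 6 and 6 of 10 tested neural progenitor markers, with 0 lower. Of 3 tested vascular and fibroblast markers 2 were higher and 1 lower at each of these times. Of 6 tested oligodendrocyte lineage markers 0 were higher and 2, 3 and 2 lower. The part of these cell types in the values of the folding enzymes was not tested.

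In signal recognition, translocation and signal peptidase 1 of 16 genes was lower at 10 min, Rrbp1 at -0.27. At 15 h 3 were higher and 1 lower, with Srp9 at 0.41 and the signal peptidase subunits Spcs2, detected on 2 of 5 controls, at 0.59 and Sec11c at -0.47. Srp9 and Sec11c passed again from 8 h to 15 h, at 0.42 and -0.35. In N-glycosylation and glycan trimming 2 of 17 were higher and 1 lower at 10 min, namely Stt3a at 0.37, Alg8 at 0.41 and Alg5 at -0.27. At 15 h 4 were higher and 2 lower, with Lman2 at 0.45, Stt3a at 0.44 and Mogs, the glucosidase that starts glycan trimming, at -0.47. From 8 h to 15 h 5 were higher and 3 lower, with Dad1 at 0.37, Lman2 at 0.32 and Mogs at -0.35. With the block, the calls of Sec11c, Lman2 and Mogs at 15 h were kept, and 0 in these 2 lists at 10 min or from 8 h to 15 h.

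In other degradation genes 3 of 22 were higher and 3 lower at 10 min, and 3 higher and 4 lower at 15 h. Fbxo2, a ubiquitin ligase subunit that binds glycoproteins, had the largest rise, 1.54 at 10 min (adjusted p = 0.00351) and 2.19 at 15 h (adjusted p = 3.82e-05), or 4.56-fold, and it rose by 2.31 from 8 h to 15 h. At 10 min Nrd1, which encodes the protease nardilysin, differed by -0.35 and Ube2j1, an ER ubiquitin-conjugating enzyme detected on 1 of 3 arrays there, by -0.37. Nrd1 stands in this list by mistake, as it is not a gene of ER-associated degradation, and the counts of the list include it. At 15 h the paralogues Erlin1 and Erlin2 passed in opposite directions, at -0.43 and 0.44. Erlin1 passed again from 8 h to 15 h at -0.49, and Fbxo6, a relative of Fbxo2, at 0.55. With the block 3 of the 6 calls at 10 min were kept, Fbxo2 and Nrd1 among them, 3 of the 7 at 15 h, Fbxo2 and Erlin1 among them, and Erlin1 alone from 8 h to 15 h.

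Among regulators of the sensors 1 of 12 was higher and 1 lower at 10 min, Tmbim6 at 0.30 and Wfs1 at -0.39. At 15 h 2 were higher and 3 lower, with the ER calcium pump gene Atp2a2 at -0.52, Bcap29 at 0.48 and Tmbim6 at 0.41. From 8 h to 15 h Atp2a2 passed at -0.57, Bcap29 at 0.51 and Creb3 at -0.36. In COPII and COPI transport 1 of 24 was higher and 3 lower at 10 min, with Kdelr2, a receptor that returns chaperones to the ER, at -0.70, Sec24d at -0.40 and Cope at 0.39. At 15 h 3 were higher and 2 lower, with Sec23b at 0.44, Sar1b at 0.34 and Sec24b at -0.27. From 8 h to 15 h Sar1b passed at 0.40, Cope at 0.35 and Sec24b at -0.37. With the block 0 calls in these 2 lists were kept at 10 min. At 15 h those of Atp2a2, Bcap29, Tmbim6 and Sec23b were among the 5 kept, and from 8 h to 15 h those of Bcap29 and Creb3 alone were.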

How the data were processed

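RNA was read on 20 arrays of 1 colour. The authors deposited a BeadStudio 3.1.7 profile, per the file headers, that gives each array's average signal as raw intensity. Beside it stands a deposited detection score, which equals 1 minus the detection p. They also deposited normalized tables whose values are a ratio to the array's median and then to the control median. The 120 other columns per array were not used. Arrays and probes were named by the profile, because 2 of 24601 joined rows carry the same identifier in the other tables and their 5 control columns hold another control array. Symbols came from the platform table through 24167 identifier pairs, and 20614 probes were named.

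From the intensities, 7 bacterial control probes were left out, and neqc of limma 3.58.1 (R 4.3.3, offset 16) gave log2 signals. The fit used the 10447 probes whose detection p was under 0.01 on 3 or more of the 20 arrays. A model with 6 groups was fitted to all arrays, with limma's moderated two-sided tests and Benjamini-Hochberg adjustment over all kept probes of a comparison, at 0.05. Precision is set by the number of arrays, and the median SE against the controls was 0.122. The brightest tested probe stood for a gene. Array values are given for the 12 genes with the smallest adjusted p in the F test and for Herpud1, and of each pathway list the 3 genes with the smallest adjusted p at 10 min, 15 h and 15 h against 8 h. The test was tried on simulated data. Members, lists and rules were chosen with earlier results of these data known. Alternatives were the slide, the controls used, the replicate number, normalization, filters and single arrays left out. The naming alternative and those of the pathway lists were added after the data were seen.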

Additional observations from a re-analysis of the deposited data

Results flagged for a closer look

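Among the 5 controls, 1 array stood far from the other 4 for 3 probes: control replicate 4 was high for Ssr3, at 8.02 against 7.51 to 7.60, control replicate 1 was low for Pdia4, at 8.25 against 8.55 to 8.64, and control replicate 1 was high for Os9, at 9.89 against 9.63 to 9.70. Such a gap is met by chance in about 5% of groups, and 25 probes were looked at.

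Differences between successive times that passed limma's test were these. From 10 min to 5 h, Hspa5 rose by 1.46, Hyou1 by 0.91, Hsp90b1 by 0.65, Sec61a1 by 0.61, Creld2 by 0.50, Ssr3 by 0.46 and Sel1l by 0.37. In the same step the Derl2 probes differed by -0.77 and -0.43, Sil1 by -0.62, the Ssr4 probes by -0.37 and -0.29 and a Sec61b probe by -0.37. From 8 h to 15 h the Derl2 probes rose by 0.94 and 0.66, Pdia4 by 0.66 and Ssr3 by 0.45, and Xbp1 and Syvn1 differed by -0.27 and -0.25. In both steps the groups lay on different slides.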

How the results depend on the processing

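Of the 43 calls over 9 comparisons, 7 were kept with the slide as a fixed block, 29 with it as a random block (correlation 0.217), and 8 of 24 against the controls with those of the same slide. Other normalizations and filters kept 33 to 41, and the cases without control replicate 2 kept 43 and added 12. No call changed direction in these fits, which all used the profile's names. With the names of the processed tables, 2 genes called lower passed as higher. These were Xbp1 at 15 h, at 0.44 (adjusted p = 0.00599), and P4hb at 10 min, at 0.30 (adjusted p = 0.0307). The replicate numbers did not pair the arrays (correlations of -0.585 to 0.454 between arrays of 1 number), and a replicate block kept 26. Of the calls in the 7 pathway lists, the slide block kept 14 of 34 at 10 min, 0 of 2 at 5 h, 26 of 47 at 15 h, 16 of 35 at 24 h, 9 of 47 for 5 h against 10 min and 8 of 42 for 15 h against 8 h. The cases without control replicate 2 kept 33, 0, 44, 33, 47 and 42 of them.

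Numbers of ER probes that passed moved as follows, with the cause not tested. With the slide as a fixed block they were 1 at 10 min, 0 at 5 h, 5 at 15 h, 2 at 24 h, 1 for 5 h against 10 min, 1 for 8 h against 5 h, 0 for 15 h against 8 h and 5 in the F test. With the slide as a random block they were 5 at 10 min, 1 at 5 h, 8 for 5 h against 10 min, 1 for 8 h against 5 h and 9 in the F test. With the controls of the same slide they were 3 at 10 min, 0 at 5 h, 5 at 15 h and 2 at 24 h, and with the replicate block 2 at 10 min, 5 at 15 h and 2 at 24 h. With the authors' normalized values they were 5 at 10 min, 5 at 5 h and 3 for 8 h against 5 h. With no filter on dim probes they were 1 at 5 h and 3 at 24 h, and with scaling to the 75th percentile 3 at 24 h. For 8 h against 5 h it was 1 each with normexp and quantiles, with that scaling, with probes detected on all arrays and with a trended, robust moderation. With the names of the processed tables, where 15 probes were tested, they were 3 at 10 min, 0 at 5 h, 4 at 15 h, 2 at 24 h, 3 for 5 h against 10 min, 1 for 8 h against 5 h, 4 for 15 h against 8 h, 0 for 24 h against 15 h and 5 in the F test.

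Leaving out 1 array at a time gave 3 to 12 probes at 10 min, 0 to 2 at 5 h, 0 to 0 at 8 h, 4 to 8 at 15 h, 1 to 10 at 24 h, 9 to 14 for 5 h against 10 min, 0 to 2 for 8 h against 5 h, 3 to 7 for 15 h against 8 h, 0 to 0 for 24 h against 15 h and 12 to 17 in the F test.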
